A study of Rattus norvegicus with 14 samples.

Results

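Solute carriers were followed as 173 genes in IEC-6 cells, an epithelial line from rat small intestine. A gene was included when its symbol in the platform annotation began with Slc and a digit and a probe set of it reached a signal of 100 on at least 2 of the 14 arrays. On the whole array 295 genes carried such a symbol, so that 122 of them stayed under this threshold. Where a gene had several probe sets, that with the highest mean log2 signal stood for it. The genes nearest the threshold were Slc8a2 and Slc46a1 inside it, with second-highest signals of 101.4 and 101.6, and Slc35f1 and Slc12a5 outside it, with 97.5 and 93.7. Slc7a6os and Slc4a1ap share the prefix by name but are not transporters, and both were kept because the rule goes by symbol.

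Monolayers of the line were kept for 72 h with 100 µM indomethacin, an inhibitor of both cyclooxygenases, with 100 µM NS-398, which prefers cyclooxygenase-2, with 1 µM SC-560, which prefers cyclooxygenase-1, or with the solvent DMSO alone. The dose of SC-560 was lower than that of the other drugs. All groups are the same line with no genetic change stated, and per the submitters' design text the first 2 drugs slow the migration of these cells while SC-560 does not. There were 2 indomethacin arrays and 4 arrays each of NS-398, SC-560 and DMSO. The array labels had a digit with or without the suffix b, a split called the label set here. What the suffix stands for is not stated in the labels. Both indomethacin arrays had the suffix, and each other group had 2 arrays with it and 2 without. The design text also states that cultures were pooled and that each pooled sample was spread over several chips, so that p-values speak of differences among arrays only, and these may be technical.

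Solute carriers move nutrients, ions and metabolites across the cell surface and the membranes of organelles, either down a gradient or by coupling to the gradient of another solute. Several amino acid exchangers work as pairs in which a light chain of the Slc7 family does the transport and a heavy chain, Slc3a2 or Slc3a1, brings it to the surface. In mature enterocytes of the small intestine, separate sets of carriers sit in the brush border, where nutrients enter, and in the basolateral membrane, where they leave. In mammalian cells the transcription factor ATF4 raises a group of amino acid carriers when amino acids run short or the endoplasmic reticulum is under stress, and NRF2 raises the cystine carrier Slc7a11 under oxidative stress.

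The label sets stood further apart than the treatments and were a term in the model. Of the solute carrier genes, 112 (64.7%) differed between the sets in limma at an adjusted p under 0.05, 76 higher and 36 lower with suffix b. Over all probe sets tested the shares were 59.0%, 31.0% higher and 28.0% lower, and 63.3% of the named genes tested differed, at 1 probe set each. Some genes reached 100 in a single label set, such as Slc16a7 with suffix b and Slc25a53 without it. Differences of such genes between the sets, and the counts that hold them, are partly a result of the threshold. Of 12 intestinal epithelium markers, 9 were above the threshold, of which 6 were higher and 2 lower with suffix b, and their median difference between the sets was 0.94 on the log2 scale. Cdx2, an intestinal transcription factor, gave signals of 3072 to 5314 on the arrays with the suffix and 55.0 to 124 without it. Cdh1, the epithelial cadherin, went the other way, with 2637 to 3671 on the arrays with the suffix and 7680 to 8412 without it, and the stem cell marker Lgr5 was also lower with suffix b (-0.81). Krt18, Epcam and Fabp2 were under the threshold on every array. Of 12 fibroblast and smooth muscle markers, 11 were above it, 4 higher and 4 lower with suffix b, with Col1a1 at 10470 to 24190 over all arrays. Within suffix b the summed signal of the epithelial list was 17230 to 17260 with indomethacin, 13970 to 14960 with NS-398, 15430 to 15550 with SC-560 and 13880 to 14460 with DMSO. The fibroblast list summed to 109700 to 113800 with indomethacin, 112400 to 116500 with NS-398, 123200 to 126400 with SC-560 and 108700 to 113000 with DMSO, again within suffix b. Krt8, a keratin, rose with indomethacin (0.23 ± 0.059, limma adjusted p 0.0414) and fell with NS-398 (-0.30 ± 0.045, limma adjusted p 0.000354), and its indomethacin call remained in 6 of the 14 fits that left out 1 array. Krt8 was the 1 epithelial marker called for each of these drugs in the model of both label sets (11.1% of those tested). On the arrays with suffix b alone, Cdx2 also rose with indomethacin (0.55) and NS-398 (0.605) at a limma adjusted p under 0.05. Cdx1, with low signals, did so too (1.23 and 0.94). With NS-398, Krt19 (0.70) and Krt20 (0.80) also rose with suffix b and Lgals4 fell (-0.45). Without the suffix Lgals4 rose (0.625). Of the fibroblast and smooth muscle list, 2 fell and none rose with indomethacin in the model of both label sets (18.2% of those tested). With NS-398, 2 rose and 2 fell (36.4%). Over all probe sets 3.27% were called for indomethacin and 13.5% for NS-398. The smooth muscle gene Tagln fell with both drugs (-1.65 and -1.04), the matrix gene Dcn fell with indomethacin (-0.59) and rose with NS-398 (0.80), and with NS-398 the collagen gene Col1a2 fell (-0.24) and the muscle gene Des rose (0.61). Of these calls, that of Dcn for indomethacin was lost in some fits that left out 1 array (adjusted p up to 0.152, without indomethacin array 1b). Ptprc and Cd3e of the immune list and Pecam1 of the endothelial list were under the threshold. The part of these differences in the results on solute carriers was not tested, and fewer cells of a type and less RNA per cell cannot be told apart in such samples.

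Across the whole set, the most solute carrier genes were called for NS-398, a small group for indomethacin, and none for SC-560. Indomethacin had 2 arrays and NS-398 had 4, so fewer calls for indomethacin need not mean smaller changes. Indomethacin raised 6 and lowered 2 of the 173 genes against DMSO (4.62% called), where 3.27% of all probe sets were called, 1.51% higher and 1.76% lower. NS-398 raised 23 and lowered 9 (18.5% called), where 13.5% of all probe sets were called, 7.12% higher and 6.39% lower. Over the named genes tested, also with 1 probe set each, 3.6% were called for indomethacin and 15% for NS-398. With SC-560 the count was 0 of 173 in limma, as it was for all probe sets (0%), with 9 solute carrier genes at an unadjusted p under 0.05 and a smallest adjusted p of 0.445. The median log2 change of the 173 genes was 0.057 with indomethacin, 0.068 with NS-398 and 0.032 with SC-560, against -0.003, -0.008 and 0.006 over all probe sets. Without regard to sign the medians were 0.143, 0.136 and 0.069, against 0.126, 0.128 and 0.075. Changes of at least 1.5-fold were called for 5 solute carrier genes with indomethacin and 6 with NS-398. Over all probe sets these counts were 211 and 322. Changes are on the scale of log2(signal + 50), which understates the change of genes with low signals, and errors after ± are standard errors from limma.

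**Figure D1:**
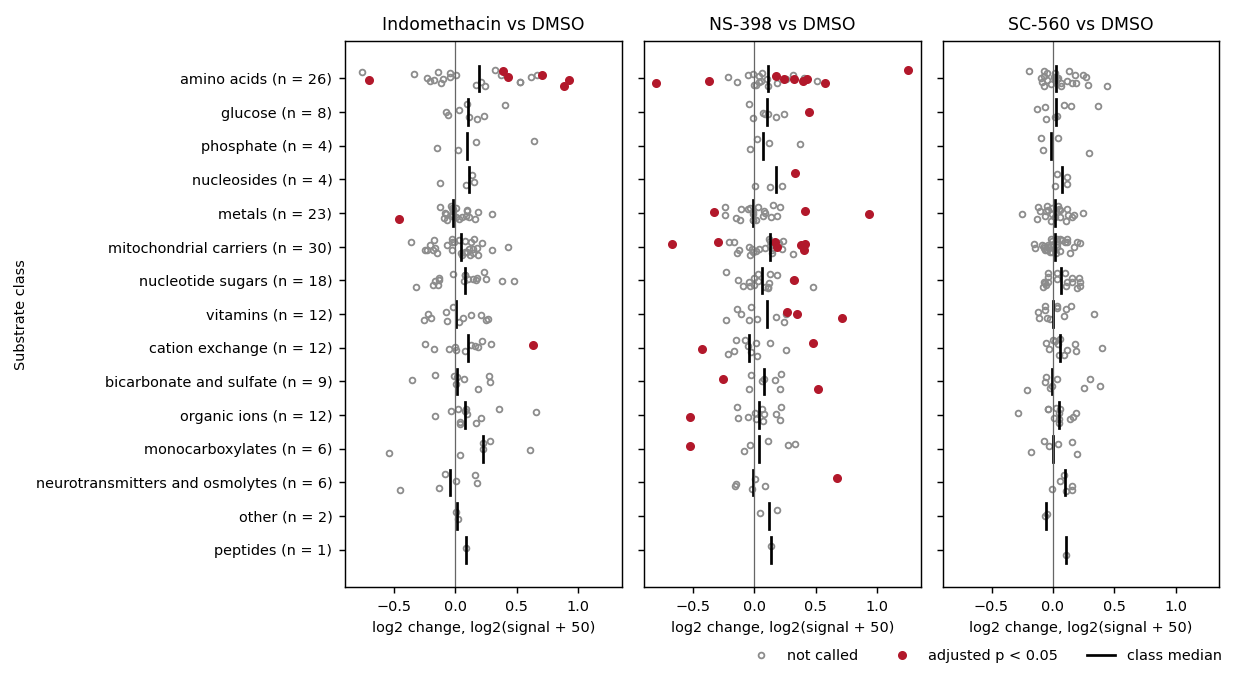
Log2 change of each solute carrier gene against DMSO by substrate class (rows) for indomethacin, NS-398 and SC-560 (panels), on the scale of log2(signal + 50). Filled points passed limma at an adjusted p under 0.05 and black bars are class medians; filled points number 8 with indomethacin, 32 with NS-398 and 0 with SC-560, and amino acid carriers hold 6 and 9 of them.

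Amino acid carriers were 6 of the 8 genes called for indomethacin in the model of both label sets, and 6 of the 17 called in set b alone, where the indomethacin arrays lie. Of the 6, Slc3a2 was the one whose call held when any 1 array was left out. Of 26 measured, 5 rose and 1 fell with indomethacin, and 7 rose and 2 fell with NS-398, while the class medians were 0.19 and 0.11. Over all probe sets 3.27% were called for indomethacin and 13.5% for NS-398. Slc3a2, the heavy chain that carries several light chains to the surface, rose with both drugs. On the arrays with suffix b, Slc3a2 gave signals of 6921 and 6946 with indomethacin, 5485 and 5560 with NS-398, 4486 and 4372 with SC-560, and 4240 and 4239 with DMSO. Without the suffix it gave 3044 and 2880 with NS-398, 2141 and 2313 with SC-560, and 2190 and 2204 with DMSO. Within each set the indomethacin and NS-398 arrays lay above DMSO without overlap, and the SC-560 and DMSO arrays without the suffix overlapped each other. The log2 change was 0.70 ± 0.059, limma adjusted p 4.21e-06 for indomethacin and 0.40 ± 0.045, limma adjusted p 2.8e-05 for NS-398, and both calls held when any 1 array was left out.

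Of the light chains of Slc3a2 that were measured (Slc7a5, Slc7a6, Slc7a7, Slc7a8 and Slc7a11), Slc7a11 passed for both drugs in the model of both sets and the others for neither. In set b alone Slc7a6, another light chain for neutral and basic amino acids, fell with NS-398 (-0.43 ± 0.097, limma adjusted p 0.012), and its change was 0.005 without the suffix. Slc7a11, the cystine and glutamate exchanger, gave signals with suffix b of 916 and 879.9 with indomethacin, 783 and 1152 with NS-398, 522 and 446 with SC-560, and 527 and 600.0 with DMSO. Its signals without the suffix were 291 and 303 with NS-398, 92.6 and 82.3 with SC-560, and 43.1 and 57.2 with DMSO. The indomethacin arrays lay inside the range of the NS-398 arrays and both drugs lay above SC-560 and DMSO. Slc7a11 rose with NS-398 (1.25 ± 0.17, limma adjusted p 0.000151), by 1.80 without the suffix and 0.71 with it, and with indomethacin (0.92 ± 0.22, limma adjusted p 0.0288). The indomethacin call was lost without indomethacin array 1b or 2b (adjusted p 0.188 and 0.165). Slc7a5, the light chain for large neutral amino acids, gave 923 and 624 with indomethacin, 277 and 541 with NS-398, 463 and 539 with SC-560, and 539.9 and 490.2 with DMSO on the arrays with suffix b, where the indomethacin arrays differed widely from each other. It was not called for indomethacin (0.67 ± 0.23, limma adjusted p 0.131) or for NS-398 (0.018 ± 0.18, limma adjusted p 0.966). In set b alone it was higher with indomethacin than with NS-398 (0.88 ± 0.23, limma adjusted p 0.0372).

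Slc1a4, an exchanger of neutral amino acids, rose with indomethacin (0.89 ± 0.20, limma adjusted p 0.0204) and with NS-398 (0.58 ± 0.15, limma adjusted p 0.0187). With suffix b its signals were 1856 and 1758 with indomethacin, 1140 and 1146 with NS-398, 1105 and 1088 with SC-560, and 1176 and 1046 with DMSO, and without it 922 and 993 with NS-398, 474 and 459.8 with SC-560, and 417 and 412 with DMSO. The NS-398 arrays thus stood above DMSO without the suffix and inside the DMSO range with it, and the log2 changes in those sets were 1.11 and 0.042. The NS-398 call was lost without DMSO array 1 or 2 or NS-398 array 1 or 2 (adjusted p 0.0633 to 0.0677), and the indomethacin call without indomethacin array 1b or 2b (0.159 and 0.13).

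Slc7a1, the carrier of arginine and lysine, and Slc6a9, a glycine carrier, rose with indomethacin and were not called for NS-398. Slc7a1 with suffix b gave 4566 and 4264 with indomethacin, 2884 and 3396 with NS-398, 3430 and 3456 with SC-560, and 3195 and 3551 with DMSO, so that both indomethacin arrays lay above all others of the set. Its log2 change was 0.39 ± 0.097, limma adjusted p 0.0349 for indomethacin, against -0.009 ± 0.075, limma adjusted p 0.96 for NS-398. All 3 tested probe sets of Slc7a1 were called for indomethacin, at 0.39, 0.61 and 0.70. Slc6a9 gave 734 and 855 with indomethacin, 577 and 531 with NS-398, 623 and 612 with SC-560, and 562 and 563 with DMSO in the same set, with a log2 change of 0.43 ± 0.12, limma adjusted p 0.0498 for indomethacin. Its other tested probe sets were not called for indomethacin, at 0.31 and 0.10 (limma adjusted p 0.37 and 0.858). The Slc7a1 call was lost without DMSO array 2 or 1b or either indomethacin array (adjusted p 0.0593 to 0.263). The Slc6a9 call remained in 2 of the 14 fits that left out 1 array, those without DMSO array 1 or SC-560 array 2, and its adjusted p reached 0.394 without indomethacin array 2b.

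Slc38a2, which takes up small neutral amino acids with sodium, rose with NS-398 and not with indomethacin. Its signals with suffix b were 9505 and 9171 with indomethacin, 12040 and 11950 with NS-398, 8670 and 9428 with SC-560, and 9699 and 9878 with DMSO, and without it 13330 and 12830 with NS-398, 9565 and 10450 with SC-560, and 10990 and 9536 with DMSO. All 4 NS-398 arrays lay above every other array, and both indomethacin arrays lay below the DMSO arrays of their set. The log2 change was 0.32 ± 0.048, limma adjusted p 0.000374 for NS-398 and -0.045 ± 0.062, limma adjusted p 0.782 for indomethacin. Other amino acid carriers that rose with NS-398 were Slc17a5, the lysosomal carrier of sialic acid and acidic amino acids (0.43 ± 0.11, limma adjusted p 0.0127), the creatine carrier Slc6a8 (0.24 ± 0.069, limma adjusted p 0.0295) and the glutamate carrier Slc1a3 (0.17 ± 0.051, limma adjusted p 0.0328). The Slc6a8 call remained in 7 of the 14 fits that left out 1 array and that of Slc1a3 in 8, with adjusted p up to 0.0717 (without NS-398 array 1b) and 0.123 (without DMSO array 2b). Their other tested probe sets were not called for NS-398, at 0.051 for Slc6a8 and -0.027 and 0.153 for Slc1a3 (limma adjusted p 0.768, 0.916 and 0.177). Another probe set of Slc1a3 was called lower with indomethacin (-0.63, limma adjusted p 0.0296), where the representative one was not (-0.17 ± 0.066, limma adjusted p 0.183).

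Falls in this class were few. Slc38a10, a relative of Slc38a2 that is less well described, gave 1256 and 1361 with indomethacin, 1732 and 1360 with NS-398, 2194 and 2207 with SC-560, and 2447 and 2013 with DMSO with suffix b. It fell by a log2 change of -0.70 ± 0.12, limma adjusted p 0.00279 with indomethacin and -0.37 ± 0.090, limma adjusted p 0.0122 with NS-398. The call for indomethacin was lost without indomethacin array 1b (adjusted p 0.0563), and that for NS-398 without DMSO array 1b (0.0517). Slc7a9, the brush border light chain for cystine, fell with NS-398 (-0.80 ± 0.19, limma adjusted p 0.00935). Its signals were 79.9 and 77.5 with NS-398, 215 and 184 with SC-560, and 149 and 162 with DMSO without the suffix, and 23.9 and 67.4 with indomethacin, 64.3 and 18.3 with NS-398, 137 and 106 with SC-560, and 156 and 85.2 with DMSO with it, so that every NS-398 and indomethacin array was under 100. Its value for indomethacin did not pass (-0.76 ± 0.24, limma adjusted p 0.103). Slc7a9 was included through SC-560 and DMSO arrays alone, so its low place with NS-398 and indomethacin is partly a result of the threshold.

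**Figure D2:**
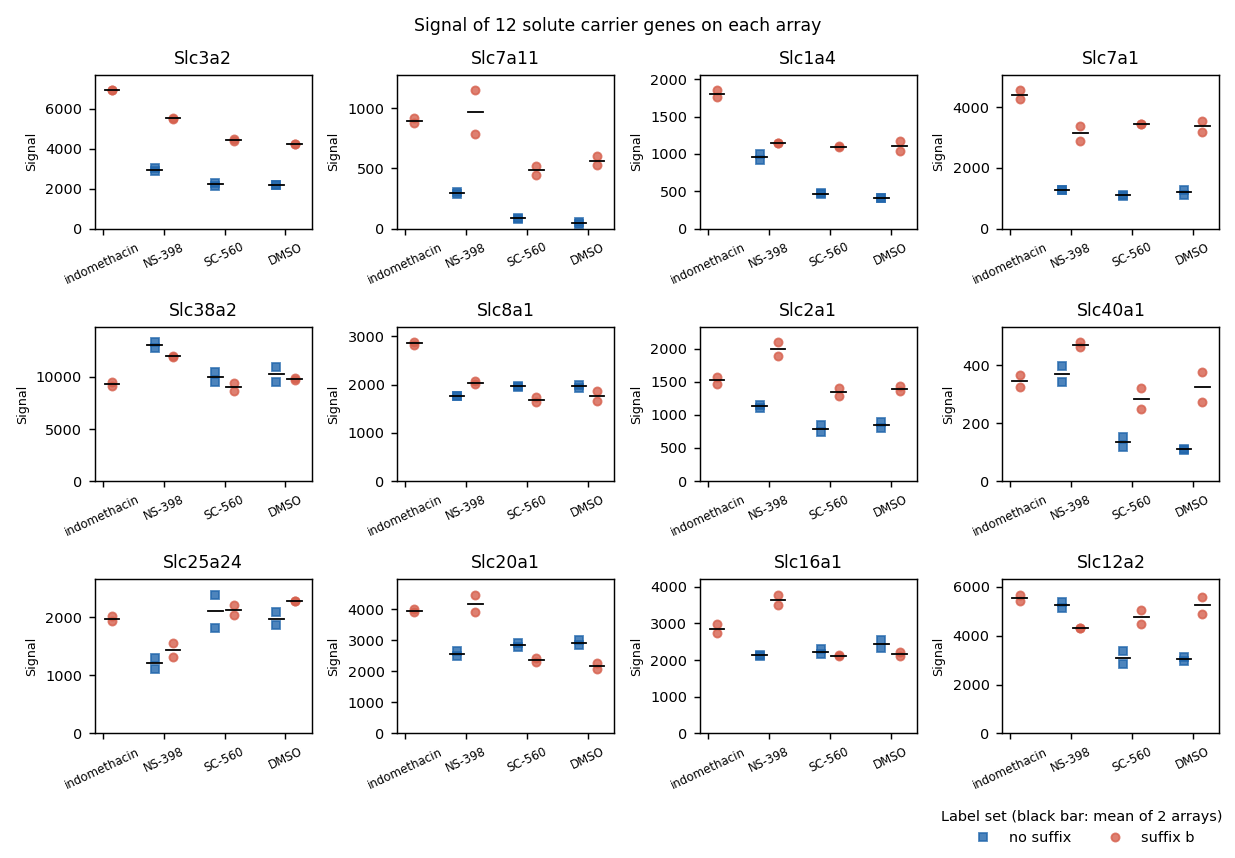
Signal (linear array units, from 0) of 12 solute carrier genes on each array for indomethacin, NS-398, SC-560 and DMSO; squares are arrays without the suffix, circles those with suffix b, and black bars means of 2 arrays. Slc3a2 stands at 6921 and 6946 with indomethacin, against 4240 and 4239 with DMSO of suffix b, and Slc20a1 and Slc16a1 are above DMSO with NS-398 where the label has the suffix and below it where it has none.

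The promoters of the 5 amino acid carriers called higher with indomethacin are shown. That call is how they were picked, and Slc3a2 alone of them kept it when any 1 array was left out. With NS-398, Slc7a1 (-0.009) and Slc6a9 (-0.002) were not called. The sequences are RefSeq's, assembly GRCr8, and run 5′ to 3′ from 250 bases before to 50 after each annotated start. Capitals mark matches, on either strand, to TGATGNAAN, a form of the CCAAT/enhancer and ATF response element that ATF4 can use, or to TGACNNNGC, the antioxidant response element of NRF2.
Slc1a4, chr14:98761513-98761812, minus strand: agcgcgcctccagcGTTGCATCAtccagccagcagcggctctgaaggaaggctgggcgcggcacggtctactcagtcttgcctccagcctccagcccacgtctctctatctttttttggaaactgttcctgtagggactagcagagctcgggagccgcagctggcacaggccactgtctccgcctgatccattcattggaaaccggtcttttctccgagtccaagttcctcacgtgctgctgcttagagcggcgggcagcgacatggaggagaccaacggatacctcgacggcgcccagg
Slc7a1, chr12:11664238-11664537, plus strand: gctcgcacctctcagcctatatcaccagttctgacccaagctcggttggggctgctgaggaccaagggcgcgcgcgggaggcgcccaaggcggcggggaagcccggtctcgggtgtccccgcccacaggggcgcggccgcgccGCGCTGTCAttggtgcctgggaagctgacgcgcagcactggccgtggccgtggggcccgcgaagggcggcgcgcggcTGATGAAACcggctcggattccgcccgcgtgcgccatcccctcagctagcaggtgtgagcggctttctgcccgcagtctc
Slc3a2, chr1:215048015-215048314, minus strand: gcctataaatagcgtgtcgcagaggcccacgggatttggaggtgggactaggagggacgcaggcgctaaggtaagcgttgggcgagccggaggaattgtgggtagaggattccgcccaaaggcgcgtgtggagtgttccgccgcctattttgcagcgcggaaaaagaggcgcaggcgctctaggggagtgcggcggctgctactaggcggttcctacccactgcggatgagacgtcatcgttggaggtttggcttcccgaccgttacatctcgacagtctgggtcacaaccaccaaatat
Slc3a2, chr1:215039621-215039920, minus strand: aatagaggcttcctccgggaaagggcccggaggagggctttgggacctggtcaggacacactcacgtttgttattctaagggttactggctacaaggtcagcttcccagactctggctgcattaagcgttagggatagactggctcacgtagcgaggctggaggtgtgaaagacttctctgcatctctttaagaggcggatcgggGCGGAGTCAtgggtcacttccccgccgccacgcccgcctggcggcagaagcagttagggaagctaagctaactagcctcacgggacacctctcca
Slc7a11, chr2:136668215-136668514, minus strand: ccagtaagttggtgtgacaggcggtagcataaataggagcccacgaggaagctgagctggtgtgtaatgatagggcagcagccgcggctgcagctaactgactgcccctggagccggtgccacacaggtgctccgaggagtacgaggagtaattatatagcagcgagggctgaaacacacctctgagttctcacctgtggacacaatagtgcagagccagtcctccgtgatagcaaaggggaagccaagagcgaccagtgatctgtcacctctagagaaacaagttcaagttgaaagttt
Slc6a9, chr5:136659826-136660125, plus strand: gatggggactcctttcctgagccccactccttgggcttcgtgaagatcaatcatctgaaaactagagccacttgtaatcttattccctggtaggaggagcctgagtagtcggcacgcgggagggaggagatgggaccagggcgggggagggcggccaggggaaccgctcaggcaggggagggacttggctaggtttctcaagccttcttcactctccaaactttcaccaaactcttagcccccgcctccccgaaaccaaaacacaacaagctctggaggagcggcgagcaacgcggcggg

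Slc1a4 and Slc7a1 each held 1 match to TGATGNAAN, Slc7a1 and the second window of Slc3a2 held 1 match each to TGACNNNGC, and the windows of Slc7a11 and Slc6a9 held neither. Promoters were given for 145 of the 173 genes and for 27457 genes in all. TGATGNAAN was found in 5 of the 145 genes (3.45%) and in 4.14% of all genes, TGACNNNGC in 30 (20.7%) and 13.1%, the metal response element TGCNCNC in 88 (60.7%) and 52.0%, and the hypoxia response element NACGTG in 43 (29.7%) and 20.9%. Matches to different motifs can overlap in a sequence, and base composition was not matched between the sets.

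Among sugar carriers, Slc2a1, the basal glucose carrier of most cells, was the member that passed. It rose with NS-398 (0.45 ± 0.067, limma adjusted p 0.000358), by 0.39 without the suffix and 0.50 with it. The signals were 1466 and 1574 with indomethacin, 1890 and 2095 with NS-398, 1410 and 1288 with SC-560, and 1356 and 1431 with DMSO with suffix b, and 1101 and 1153 with NS-398, 747 and 841 with SC-560, and 800.2 and 895 with DMSO without it. The NS-398 arrays did not overlap any other group within their set. With indomethacin the change was 0.096 ± 0.086, limma adjusted p 0.63, and the call for NS-398 held when any 1 array was left out. Of 8 genes in the class 1 rose with NS-398, where 13.5% of all probe sets were called. None of the 8 was called for indomethacin in limma, where 3.27% of all probe sets were. Slc2a13, a carrier of myo-inositol, gave 174 to 284 on arrays with suffix b and 5.07 to 58.0 without it. Slc2a5, the fructose carrier, stayed between 6.64 and 122.5 over all arrays.

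None of the 4 phosphate carriers passed in the model of both sets, but Slc20a1, the sodium-coupled importer of inorganic phosphate, behaved differently in them. Its signals with suffix b were 3902 and 3987 with indomethacin, 4462 and 3891 with NS-398, 2412 and 2314 with SC-560, and 2071 and 2250 with DMSO. Without the suffix they were 2654 and 2477 with NS-398, 2783 and 2901 with SC-560, and 2839 and 2993 with DMSO. Both drugs lay above DMSO and SC-560 with the suffix, and NS-398 lay below them without it. In set b alone the log2 change was 0.85 ± 0.074, limma adjusted p 0.000112 for indomethacin and 0.93 ± 0.074, limma adjusted p 2.01e-05 for NS-398. The model of both sets gave 0.64 ± 0.20, limma adjusted p 0.0962 and 0.38 ± 0.16, limma adjusted p 0.124.

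Of 4 nucleoside carriers, Slc29a1, which lets nucleosides pass down their gradient, rose with NS-398 (0.33 ± 0.10, limma adjusted p 0.0384). This call was lost without DMSO array 2, 1b or 2b or NS-398 array 1 or 2b (adjusted p 0.0858 to 0.126). Slc28a2, which takes up purine nucleosides with sodium, gave 2626 and 2553 with NS-398, 2788 and 2467 with SC-560, and 2414 and 2262 with DMSO without the suffix. With suffix b it gave 567 and 774 with indomethacin, 910.2 and 896 with NS-398, 772 and 745 with SC-560, and 698 and 746 with DMSO. The sets did not overlap, at a log2 difference of -1.61 ± 0.068 for suffix b against none. NS-398 arrays had the highest values of suffix b, but the change did not pass (0.23 ± 0.083, limma adjusted p 0.0851).

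Among metal carriers, an iron exporter and a zinc exporter rose with NS-398, and a zinc importer fell with both drugs used at 100 µM. Slc40a1, ferroportin, the exporter of iron, rose with NS-398 (0.93 ± 0.15, limma adjusted p 0.000828). It gave 344 and 396 with NS-398, 119 and 152 with SC-560, and 109 and 112 with DMSO without the suffix, and 367 and 324 with indomethacin, 479 and 462 with NS-398, 320.1 and 249 with SC-560, and 274 and 378 with DMSO with it. The NS-398 mean was 3.35 times the DMSO mean without the suffix and 1.44 times with it. The change was 1.39 and 0.48 in those sets, and all 3 probe sets were called, at 0.93, 0.42 and 0.49. Slc40a1 with indomethacin had 0.30 ± 0.20, limma adjusted p 0.491.

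Slc30a4, which moves zinc out of the cytosol into vesicles, rose with NS-398 (0.41 ± 0.070, limma adjusted p 0.00107). Its signals were 1473 and 1501 with indomethacin, 1847 and 1849 with NS-398, 1303 and 1152 with SC-560, and 1274 and 1324 with DMSO with suffix b, so that NS-398 stood above the other groups. Slc39a8, which imports zinc and manganese, fell with indomethacin (-0.46 ± 0.10, limma adjusted p 0.0185) and NS-398 (-0.33 ± 0.078, limma adjusted p 0.01). Slc39a8 signals were 3653 and 3967 with indomethacin, 3885 and 3875 with NS-398, 4574 and 5615 with SC-560, and 5957 and 4956 with DMSO with suffix b, and both drugs lay below the others there. Without the suffix they were 6905 and 7443 with NS-398, 7579 and 7383 with SC-560, and 8304 and 7888 with DMSO. There NS-398 lay below DMSO but overlapped SC-560. The NS-398 mean was 0.886 times the DMSO mean without the suffix and 0.711 times with it. The indomethacin call was lost without DMSO array 1b or either indomethacin array (adjusted p 0.0834 to 0.19). Slc39a10, another zinc importer, rose with NS-398 in the set without the suffix alone (0.43 ± 0.072, limma adjusted p 0.00356), where it gave 2930 and 2916 with NS-398, 2042 and 2228 with SC-560, and 2191 and 2132 with DMSO, and stood at -0.009 in set b. Slc11a2, the importer of ferrous iron, was not called in the model of both sets (-0.24 ± 0.085, limma adjusted p 0.071 for NS-398). Of the 23 genes in the class, 20 were not called for NS-398 and 22 were not called for indomethacin. Over all probe sets 13.5% were called for NS-398 and 3.27% for indomethacin, and the counts of metal carriers lay near these shares.

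Mitochondrial carriers formed the largest class, with 30 genes. With NS-398, 5 rose and 2 fell, where 13.5% of all probe sets were called. In limma none of the 30 was called for indomethacin, where 3.27% of all probe sets were. The changes that follow are those with NS-398. Slc25a24, which exchanges ATP-magnesium for phosphate across the inner membrane, fell (-0.67 ± 0.086, limma adjusted p 8.15e-05). It gave 1308 and 1118 with NS-398, 2392 and 1821 with SC-560, and 1865 and 2089 with DMSO without the suffix, and 2026 and 1937 with indomethacin, 1560 and 1316 with NS-398, 2048 and 2214 with SC-560, and 2289 and 2280 with DMSO with it, so that NS-398 was the lowest group in both sets. Slc25a25, of the same subfamily, moved the other way (0.41 ± 0.086, limma adjusted p 0.00485). The exchanger of aspartate and glutamate Slc25a13 fell (-0.29 ± 0.070, limma adjusted p 0.00957), while its other tested probe set was not called (-0.23, limma adjusted p 0.101).

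The pyrimidine nucleotide carrier Slc25a33 rose (0.42 ± 0.082, limma adjusted p 0.00304), and its signals with suffix b were 424 and 466 with indomethacin, 702 and 706 with NS-398, 519 and 502 with SC-560, and 513 and 560.0 with DMSO. Both indomethacin arrays were below the DMSO arrays of the set, and both NS-398 arrays above them. The glutamate carrier Slc25a22 (0.38 ± 0.12, limma adjusted p 0.0348), the phosphate carrier Slc25a3 (0.17 ± 0.046, limma adjusted p 0.0198) and Slc25a39, needed for glutathione import (0.18 ± 0.056, limma adjusted p 0.0391), also rose. Each of these 3 calls was lost when some arrays were left out, with adjusted p up to 0.129 (without DMSO array 1b), 0.062 (without DMSO array 1b) and 0.11 (without NS-398 array 1). The other tested probe set of Slc25a39 had the opposite sign with NS-398 and was not called (-0.46, limma adjusted p 0.271). Slc25a4 and Slc25a5, the exchangers of ADP and ATP, were not called, at 0.12 ± 0.042, limma adjusted p 0.07 and 0.14 ± 0.059, limma adjusted p 0.122.

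In the other classes, Slc8a1, the exchanger of sodium for calcium, rose with indomethacin and held when any 1 array was left out. It gave 2831 and 2879 with indomethacin, 2074 and 2015 with NS-398, 1736 and 1637 with SC-560, and 1666 and 1872 with DMSO with suffix b, where the indomethacin arrays were the highest. The log2 change was 0.63 ± 0.098, limma adjusted p 0.00171 for indomethacin and 0.026 ± 0.076, limma adjusted p 0.87 for NS-398. The other tested probe set of Slc8a1 had 0.45 with indomethacin and was not called (limma adjusted p 0.192). Slc12a7, a cotransporter of potassium and chloride, rose with NS-398 (0.48 ± 0.095, limma adjusted p 0.00308), and Slc12a9, of the same family, fell (-0.42 ± 0.10, limma adjusted p 0.0127). The other tested probe set of Slc12a7 had 0.46 with NS-398 and was not called (limma adjusted p 0.318). Slc4a4, which moves bicarbonate with sodium, rose with NS-398 (0.52 ± 0.14, limma adjusted p 0.0232), by 0.92 without the suffix and 0.11 with it. The chloride and bicarbonate exchanger Slc4a2 fell (-0.26 ± 0.075, limma adjusted p 0.0319). The calls of Slc4a4 and Slc4a2 were lost when some arrays were left out, with adjusted p up to 0.0808 (without NS-398 array 2) and 0.0961 (without NS-398 array 1b).

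Slc6a4, the serotonin carrier, had opposite signs with the drugs. Its signals with suffix b were 91.6 and 74.3 with indomethacin, 304 and 257 with NS-398, 126 and 168 with SC-560, and 136 and 94.4 with DMSO, and without the suffix 354 and 304 with NS-398, 257 and 267 with SC-560, and 249 and 251 with DMSO. NS-398 was the highest group of each set, and both indomethacin values were the lowest of suffix b. The rise with NS-398 passed (0.67 ± 0.14, limma adjusted p 0.00445), and the value for indomethacin did not (-0.45 ± 0.18, limma adjusted p 0.205). Slc23a2, a carrier of vitamin C, rose with NS-398 (0.72 ± 0.14, limma adjusted p 0.00291), but its other tested probe set had 0.056 with a limma adjusted p of 0.831. Slc44a1, a choline carrier, rose (0.26 ± 0.050, limma adjusted p 0.00222) with all 3 of its probe sets called, at 0.26, 0.29 and 0.48. Slc48a1, which moves heme out of lysosomes, rose too (0.35 ± 0.073, limma adjusted p 0.00409), as did Slc35e4, whose substrate is not established (0.33 ± 0.097, limma adjusted p 0.0338). The sulfate carrier Slc13a4, grouped here by family with the carboxylate carriers, fell (-0.52 ± 0.12, limma adjusted p 0.00915). Slc35e4 was lost without any 1 of 6 arrays, with an adjusted p up to 0.0979 (without NS-398 array 2b).

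**Figure D3:**
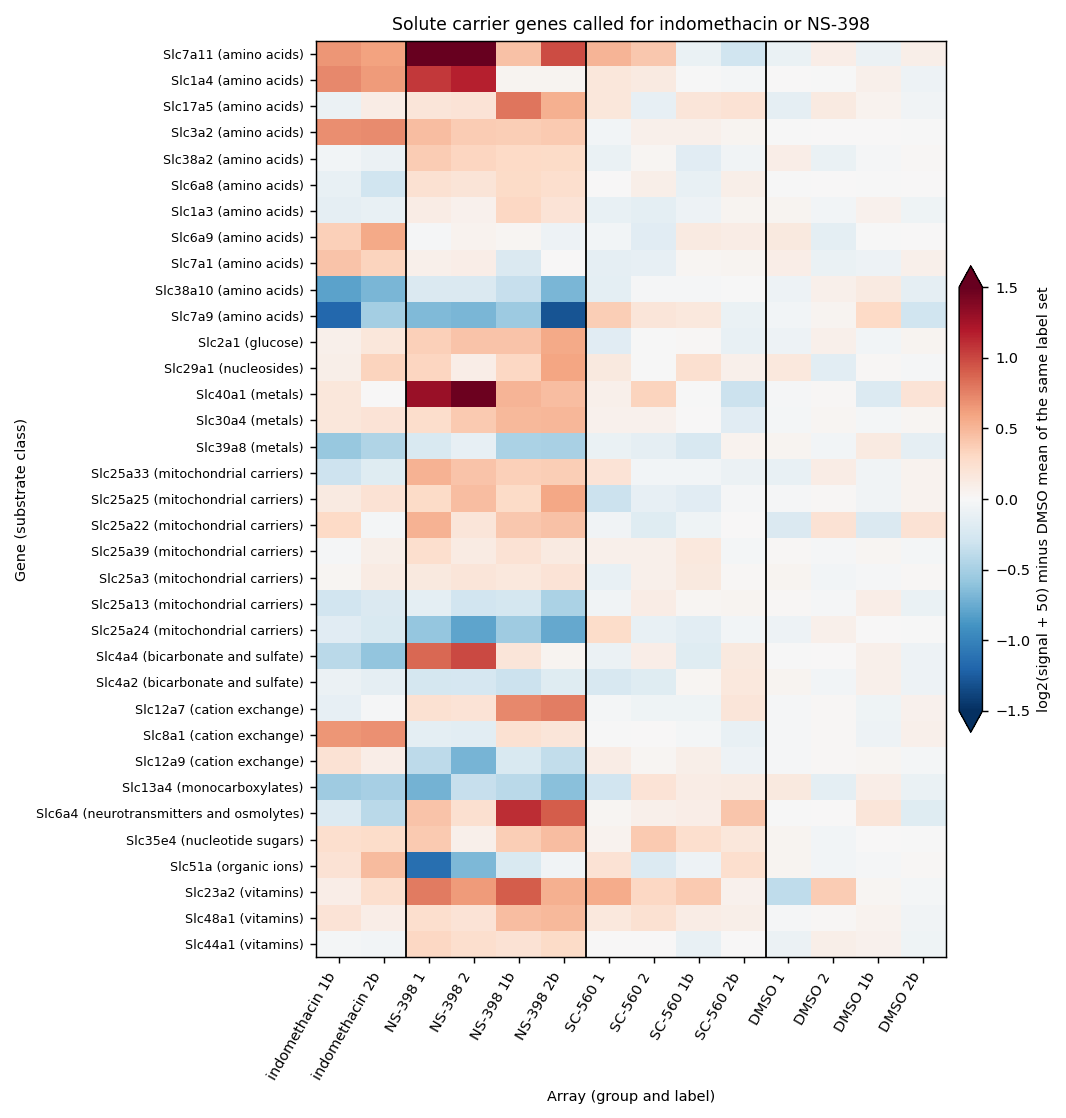
The 35 solute carrier genes called for indomethacin or NS-398 (rows, with substrate class) on each of the 14 arrays (columns, by group); colour is log2(signal + 50) minus the mean of the 2 DMSO arrays in that label set, cut at -1.5 and 1.5. Slc3a2 is red on all indomethacin and NS-398 arrays, Slc8a1 is red with indomethacin (0.63), Slc25a24 blue with NS-398 (-0.67), and the SC-560 columns are pale.

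SC-560 was set against DMSO at 1 µM, so that its values cannot be compared with those of the other drugs at one dose. The solute carrier genes with the smallest p were Slc39a1, a zinc importer (0.25 ± 0.070, limma adjusted p 0.445), Slc26a6, an anion exchanger (0.39 ± 0.12, limma adjusted p 0.465), and Slc4a7, a carrier of bicarbonate with sodium (-0.21 ± 0.083, limma adjusted p 0.574). Slc39a1 gave 2187 and 1927 with indomethacin, 2401 and 2062 with NS-398, 2223 and 2338 with SC-560, and 2084 and 1988 with DMSO with suffix b, and 2118 and 1916 with NS-398, 2530 and 2458 with SC-560, and 2026 and 1907 with DMSO without it. The SC-560 arrays were above the DMSO arrays in both sets. Slc3a2 with SC-560 had a change of 0.040 with a 95% interval of -0.056 to 0.14, Slc7a11 one of 0.13 (-0.23 to 0.49), and Slc40a1 one of 0.021 (-0.30 to 0.35).

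Indomethacin and NS-398 were used at the same dose and time and differ in structure, indomethacin being an indole acetic acid and NS-398 a sulfonamide. Their difference was tested directly as indomethacin minus NS-398, 1 pair of drugs over all probe sets. It passed for 17 solute carrier genes (9.83%), 7 higher and 10 lower with indomethacin, where 5.45% of all probe sets passed, 2.08% higher and 3.36% lower. Of the named genes tested, 6.12% passed. Slc8a1 (0.60 ± 0.098, limma adjusted p 0.0017), Slc38a2 (-0.37 ± 0.062, limma adjusted p 0.00222) and Slc6a4 (-1.12 ± 0.18, limma adjusted p 0.00161) held when any 1 array was left out. Slc3a2 was higher with indomethacin (0.30 ± 0.059, limma adjusted p 0.00564), and its call was lost without indomethacin array 1b or 2b (adjusted p 0.0647 and 0.0751). Slc7a1 and Slc6a9 were also higher with indomethacin, at 0.40 and 0.43, and these calls remained in 11 and 10 of the 14 fits that left out 1 array (adjusted p up to 0.2 for Slc7a1 when indomethacin array 1b was missing, and up to 0.317 for Slc6a9 when array 2b was).

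Lower with indomethacin than with NS-398 were Slc12a7 (-0.65 ± 0.12, limma adjusted p 0.00454), Slc25a33 (-0.62 ± 0.11, limma adjusted p 0.00236), Slc6a8 (-0.45 ± 0.089, limma adjusted p 0.00734) and Slc1a3 (-0.35 ± 0.066, limma adjusted p 0.00542). Leaving out indomethacin array 1b ended the calls of Slc12a7, Slc25a33 and Slc1a3 (adjusted p 0.0738, 0.0509 and 0.0684), and leaving out array 2b ended those of Slc6a8 and Slc1a3 (0.141 and 0.0568). For Slc7a11 the difference did not pass (-0.33, 95% interval -0.79 to 0.13, limma adjusted p 0.434). The same holds for Slc39a8 (-0.13, -0.34 to 0.080, limma adjusted p 0.512). Slc1a4 did not pass in the model of both sets (0.31, -0.11 to 0.72, limma adjusted p 0.418), which takes in the NS-398 arrays without the suffix, but was higher with indomethacin in set b alone (0.64 ± 0.081, limma adjusted p 0.000711). Both drug effects share the DMSO arrays, so the calls of a gene for both drugs are not independent. The number of genes called for both is not read as a result.

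**Figure D4:**
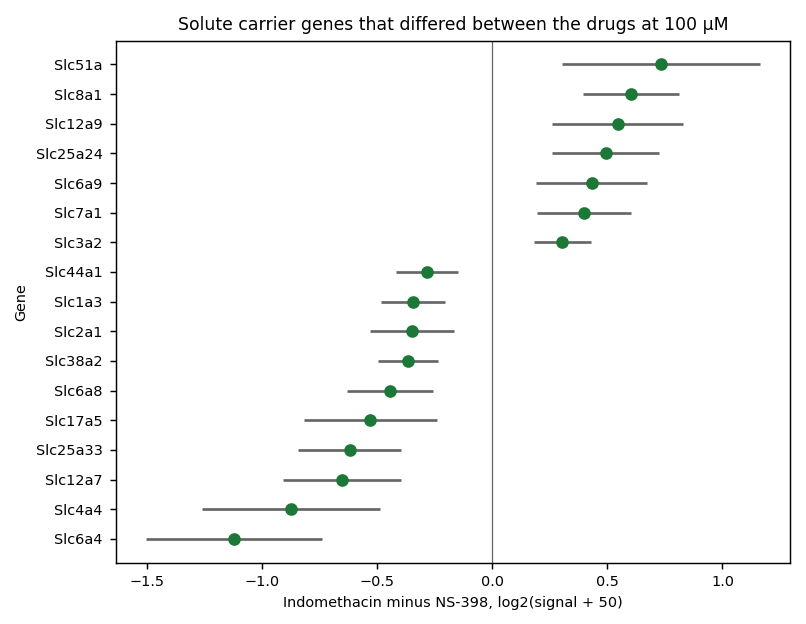
The 17 solute carrier genes that differed between indomethacin and NS-398; points are indomethacin minus NS-398 on the scale of log2(signal + 50) and bars 95% intervals from limma. Positive values, such as 0.60 for Slc8a1, are higher with indomethacin, and negative ones, such as -1.12 for Slc6a4, are lower with it.

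The effect of NS-398 differed between the label sets for 18 solute carrier genes (10.4%) by the interaction term, 8 with a more positive effect with suffix b and 10 with a more negative one. Over all probe sets the share was 5.47%, 2.92% more positive and 2.55% more negative, and over the named genes tested it was 6.78%. Besides Slc20a1 (1.11 ± 0.11, limma adjusted p 3.76e-05, suffix b minus no suffix), the more positive ones included Slc16a1, a carrier of lactate and pyruvate (0.93 ± 0.099, limma adjusted p 9.49e-05), and Slc35c1, which brings GDP-fucose into the Golgi (1.10 ± 0.20, limma adjusted p 0.00498). Slc16a1 gave 2731 and 2984 with indomethacin, 3506 and 3782 with NS-398, 2117 and 2129 with SC-560, and 2102 and 2228 with DMSO with suffix b, and 2129 and 2123 with NS-398, 2289 and 2176 with SC-560, and 2335 and 2539 with DMSO without it. As for Slc20a1, NS-398 lay above DMSO with the suffix and below it without.

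Slc12a2, a cotransporter of sodium, potassium and chloride, showed the reverse (-1.05 ± 0.12, limma adjusted p 0.000209). It gave 5386 and 5140 with NS-398, 3370 and 2826 with SC-560, and 2948 and 3123 with DMSO without the suffix, and 5678 and 5403 with indomethacin, 4317 and 4330 with NS-398, 5056 and 4470 with SC-560, and 4892 and 5581 with DMSO with it. NS-398 thus lay above DMSO in one set and below it in the other, and each difference passed within its set (0.78 ± 0.083, limma adjusted p 0.000159 without the suffix and -0.27 ± 0.074, limma adjusted p 0.0308 with it). Slc1a4 (-1.07 ± 0.13, limma adjusted p 0.000239), Slc7a11 (-1.09 ± 0.23, limma adjusted p 0.0128), Slc4a4 (-0.81 ± 0.17, limma adjusted p 0.0122) and Slc25a5 (-0.32 ± 0.070, limma adjusted p 0.0159) also had the larger rise without the suffix. The calls of Slc20a1, Slc16a1, Slc12a2, Slc1a4 and Slc35c1 held when any 1 array was left out. Those of Slc7a11 (adjusted p 0.0507 to 0.0551 without DMSO array 1 or 2b or NS-398 array 2 or 1b), Slc4a4 (0.0636 and 0.067 without DMSO array 1b or NS-398 array 2) and Slc25a5 (0.0559 to 0.0762 without DMSO array 2 or 1b or NS-398 array 1 or 2) did not.

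Within one label set, NS-398 against DMSO called 39 of the 173 solute carrier genes with suffix b (22.5%, where 14.2% of all probe sets were called) and 19 without it (11%, where 9.48% of all probe sets were called). Of these, 9 were called in both sets: Slc3a2, Slc7a11, Slc38a2, Slc2a1, Slc30a4, Slc25a24, Slc25a33 and Slc44a1 in the same direction and Slc12a2 in opposite ones. These 9 are 23.1% of the calls with suffix b and 47.4% of those without it. Over all probe sets, 523 were called in both sets, 21% of the calls with suffix b and 31.5% of those without it, and 89 of the 523 had opposite signs. Of the 32 NS-398 calls in the model of both sets, 22 were also called in set b alone, and Slc12a9, Slc1a4, Slc25a22, Slc25a39, Slc40a1, Slc4a2, Slc4a4, Slc51a, Slc6a8 and Slc7a9 were not. Indomethacin against DMSO in set b alone called 17 genes (9.83%, where 6.70% of all probe sets were called), among them all 8 of the model of both sets. Set b alone added Slc16a1 (0.39 ± 0.070, limma adjusted p 0.00733), Slc35c1 (0.64 ± 0.092, limma adjusted p 0.0023), Slc20a1 and 6 more. Indomethacin against NS-398 in set b alone called 25 genes (14.5%, where 9.31% of all probe sets were called), among them 15 of the 17 of the model of both sets.

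**Figure D5:**
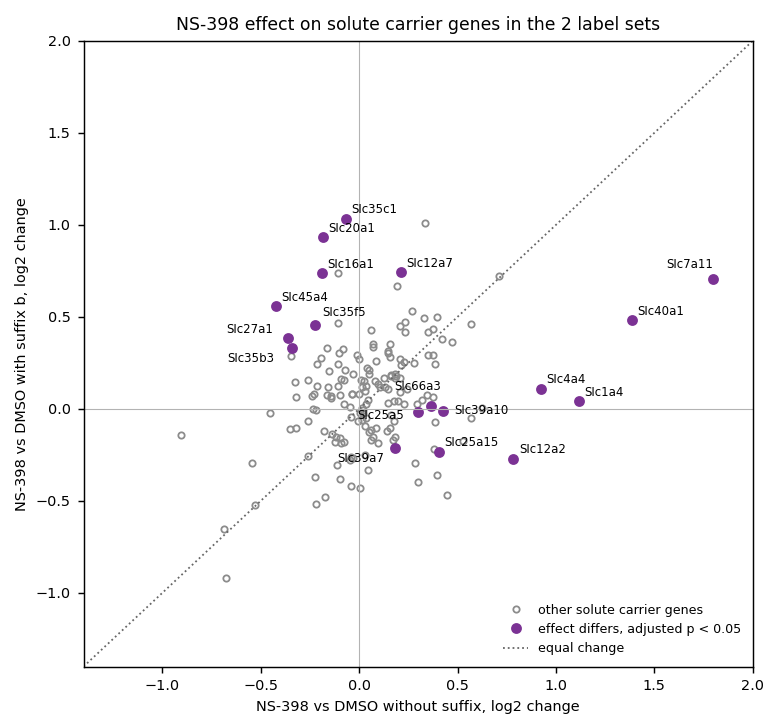
Log2 change with NS-398 against DMSO for the 173 solute carrier genes, on arrays without the suffix (horizontal) and with suffix b (vertical); filled points are the 18 genes whose effect differed by the interaction term at an adjusted p under 0.05. Slc12a2 lies at 0.78 without the suffix and -0.27 with it, Slc20a1 at -0.18 and 0.93, and the dotted line is equal change.

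Between the label sets themselves, the largest falls with suffix b were Slc28a2, Slc39a10 (-1.18), Slc4a4 (-0.82) and Slc25a45 (-0.73), a mitochondrial carrier. The largest rises were Slc16a7, a monocarboxylate carrier (2.28), Slc7a11 (2.03), Slc2a13 (1.83) and Slc4a7 (1.62). Slc16a7 and Slc2a13 were under 100 on every array without the suffix. They were included through suffix b alone, so their rises are partly a result of the threshold. For Slc33a1, probe sets of 1 gene were called in opposite directions between the sets, at 0.20, 0.32 and -0.30.

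Of 19 carriers of the mature absorptive enterocyte 17 had a probe set with 1 name, and 10 of them passed the threshold. Of these, Slc3a1 (374 to 751), Slc11a2 (396 to 618), Slc51a, Slc40a1 and Slc26a6 gave more than 100 on every array. The glucose carrier Slc5a1 stayed between 3.65 and 40.2 on all arrays, and Slc2a2, Slc15a1, Slc34a2, Slc26a3, Slc9a3 and Slc39a4 were also under the threshold. Of the 10 measured, none was called for indomethacin in limma, and 1 rose and 2 fell with NS-398: Slc40a1, Slc7a9 and Slc51a, a subunit of the basolateral bile acid exporter (-0.52 ± 0.16, limma adjusted p 0.0363). That was 30% for NS-398, where 13.5% of all probe sets were called. Slc51a gave 121 and 185 with NS-398, 386 and 275 with SC-560, and 337 and 313 with DMSO without the suffix, and 388 and 476 with indomethacin, 272 and 313 with NS-398, 307 and 399 with SC-560, and 322 and 333 with DMSO with it. The fall was -0.90 without the suffix and -0.14 with it, and the call was lost without any 1 of 5 arrays (adjusted p up to 0.118, without NS-398 array 1). The heavy chain Slc3a1, partner of Slc7a9, was not called (-0.14 ± 0.11, limma adjusted p 0.464 for NS-398). The bile acid importer Slc10a2 gave 124 and 133 with indomethacin and no more than 83.2 on any other array, without passing (0.65 ± 0.20, limma adjusted p 0.0862). It was included through the indomethacin arrays alone, so its height there is partly a result of the threshold. Slc7a9 was included through SC-560 and DMSO arrays alone, so the same limit applies to its fall.

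Of 20 genes that work with solute carriers without an Slc symbol, 16 were tested. In the model of both sets, 4 rose and none fell with indomethacin (25% called, where 3.27% of all probe sets were called). With NS-398, 5 rose and none fell in that model (31.2% called, where 13.5% of all probe sets were called). The list was chosen with earlier results of these data known, so its shares cannot be read as those of such genes in general. Atp1b1, of the sodium pump, fell with NS-398 without the suffix (-0.80 ± 0.089, limma adjusted p 0.000227). With suffix b it rose (0.22 ± 0.067, limma adjusted p 0.0489), and its interaction term passed (1.02 ± 0.12, limma adjusted p 0.000226). In set b alone Ankh rose with indomethacin (0.57 ± 0.081, limma adjusted p 0.00198) and NS-398 (0.475 ± 0.081, limma adjusted p 0.00253). Atf4, the stress factor that acts on amino acid carrier genes, rose with both drugs, by 0.42 ± 0.11, limma adjusted p 0.0437 for indomethacin and 0.33 ± 0.085, limma adjusted p 0.0173 for NS-398. Its signals were 10600 and 10740 with indomethacin, 8347 and 9586 with NS-398, 8646 and 8610 with SC-560, and 8446 and 8472 with DMSO with suffix b, and 8844 and 8844 with NS-398, 5869 and 6630 with SC-560, and 6391 and 5529 with DMSO without it. The rise with NS-398 was 0.57 without the suffix (limma adjusted p 0.000888), while with it the change was 0.080 (limma adjusted p 0.421) and the NS-398 arrays lay on both sides of DMSO, and the interaction term passed (-0.49 ± 0.11, limma adjusted p 0.0159). The Atf4 calls remained in 6 of the 14 fits that left out 1 array for indomethacin and in 11 for NS-398 (adjusted p up to 0.243, without indomethacin array 2b, and 0.0693, without DMSO array 2). Nfe2l2, the gene of NRF2, rose with NS-398 (0.32 ± 0.046, limma adjusted p 0.000295) and had 0.083 ± 0.059, limma adjusted p 0.52 for indomethacin. Sgk1, a kinase that keeps carriers at the surface, rose with NS-398 (0.99 ± 0.072, limma adjusted p 2.69e-07) and with indomethacin (0.39 ± 0.093, limma adjusted p 0.0282). Emb, a partner of monocarboxylate carriers, rose with both (0.58 and 0.54), Txnip, which promotes removal of Slc2a1 from the surface, with indomethacin (0.30), and the zinc-binding Mt2A with NS-398 (0.41). The NS-398 calls of Nfe2l2, Sgk1 and Emb held when any 1 array was left out. The indomethacin calls of Sgk1, Emb and Txnip and the NS-398 call of Mt2A were lost in some of those fits, with adjusted p up to 0.206 for Sgk1 and 0.203 for Txnip when indomethacin array 2b was missing, 0.267 for Emb when array 1b was, and 0.112 for Mt2A when DMSO array 2b was. The median over the 16 was 0.095 with indomethacin and 0.12 with NS-398.

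Signals of different probe sets cannot be ranked as levels of the genes. Among the probe sets with high signals on the DMSO arrays were Slc25a3 at 12400 to 13430, Slc6a6, the taurine carrier, at 9937 to 15300, and Slc25a4 at 10110 to 11330. Over all 14 arrays the lowest and highest signals were 11830 and 15370 for Slc25a3 and 10250 and 12060 for Slc25a4. Slc6a6 had its highest signals without the suffix (13290 to 15990), against 9937 to 12280 with suffix b, and was not called for indomethacin (0.16 ± 0.072, limma adjusted p 0.286), although its other probe set was (0.38, limma adjusted p 0.0262).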

How the data were processed

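Amplified RNA of IEC-6 cells had been hybridised to 14 Affymetrix arrays of 1 colour, per the labels. The deposited values are linear signal intensities for 31099 probe sets on each array, which the authors had scaled to a common target of 500, per the labels. The trimmed mean of each array was 500.163 to 500.173, and no other normalization was added. No source used here names the summarising software. The median signal per array was 97.8 to 118, and 49.7% to 52.4% of probe sets reached 100. For arrays, the number of arrays limits the precision.

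Names came from the annotation of the platform, with 1 symbol for 20832 probe sets; 436 with several symbols and 9831 without an entry stay unnamed here. The 57 control probe sets were left out. All 173 solute carrier genes were found in the RefSeq table of GRCr8 by gene identifier, with no symbol changed. Of 401 solute carrier probe sets 228 were tested, and 40 genes had more than 1 of these.

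The test was limma 3.58.1 under R 4.3.3 on log2(signal + 50), with a mean per group, a term for the label set, empirical Bayes moderation with an intensity trend, and Benjamini-Hochberg adjustment over the 17515 probe sets that reached a signal of 100 on at least 2 arrays. These hold 9840 named genes. Calls are at an adjusted p under 0.05. The interaction with the label set was fitted without indomethacin. On simulated data for indomethacin, NS-398 and SC-560, each with 200 changed among 17515 probe sets, 38.5%, 60.5% and 60.5% of log2 changes of 0.5 were recovered, and 91%, 98% and 98.5% of those of 1.

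Genes were classed by Slc family. Named genes were, for indomethacin and for NS-398 against DMSO, up to 6 called genes in each direction by adjusted p in each of the 6 substrate classes of nutrients, metals and mitochondria, and up to 3 in the others. The 8 with the smallest adjusted p were named for the difference between the drugs and for the interaction, 3 by p for SC-560, and the 4 largest in each direction for the label set. Added to these were the 10 highest on DMSO arrays, the highest of each of the 6 classes, and a list of enterocyte carriers. Slc7a5, Slc16a1 and the partners of carriers were always named. The genes, classes and lists were chosen with earlier results of these data known. Alternatives varied the added constant, filter, normalization, trend, probe sets, label set term, blocks and the arrays used.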

Additional observations from a re-analysis of the deposited data

Results flagged for a closer look

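The effect of NS-398 differed between the label sets by the interaction term of limma for 8 named genes, given as suffix b minus no suffix on the log2 scale. The values were 1.115 for Slc20a1, 0.929 for Slc16a1 and 1.101 for Slc35c1, where the effect with suffix b was the more positive. They were -1.055 for Slc12a2, -1.074 for Slc1a4, -0.813 for Slc4a4, -1.088 for Slc7a11 and -0.317 for Slc25a5, where it was the more negative.

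Among 165 groups of 4 arrays of 55 named genes, 5 held an array far from the other 3 by Dixon's criterion. Its usual rate of about 1 in 20 groups is for arrays of one kind. Each group here joined arrays of both label sets, so that rate does not apply where the sets differ. The 5 were Slc17a5 on NS-398 array 1b (944.0) and on SC-560 array 1 (739.4), Slc23a2 on DMSO array 1 (149.3), Slc25a22 on NS-398 array 2 (596.4) and Slc7a9 on DMSO array 2b (85.25). The calls of Slc17a5, Slc23a2 and Slc7a9 for NS-398 held without the array concerned, and so did that of Slc25a22 without NS-398 array 2.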

How the results depend on the processing

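Each count of called solute carrier genes was recomputed under other settings. For indomethacin against DMSO (8 genes), 5 were called with no filter on signal, 4 with no intensity trend, 17 in set b alone, 0 with no label set term, 18 with 1 mean for each group and label set, and 5 with a random block for group and label set (correlation 0.157). Over all probe sets the counts, in that order, were 347, 328, 1174, 2, 1243 and 283, against 572 in the main model. With no filter 31042 probe sets were tested in place of 17515. For NS-398 against DMSO (32 genes) 1 was called with no label set term and 19 in the set without the suffix alone. The counts over all probe sets were 111 and 1660, against 2366. The difference between the drugs (17 genes) fell to 0 with no label set term, and the interaction (18 genes) to 9 with no filter on signal and 5 with no intensity trend. Over all probe sets the first fell from 954 to 15, and the interaction from 958 to 586 and 330. The added constants 16 and 200, quantile normalization and the use of all probe sets left each count within 1.5 times the one reported. The other settings did so for the counts not listed here.

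With 1 array left out, 2 to 9 genes were called for indomethacin against DMSO, 22 to 33 for NS-398, 0 for SC-560, 4 to 17 for the difference between the drugs, 7 to 18 for the interaction and 107 to 116 for the label set. The indomethacin count was 2 without indomethacin array 1b, 3 without array 2b and 5 without DMSO array 1b, and the difference between the drugs had 4 and 6 when indomethacin array 1b or 2b was left out. The interaction had 9, 7, 8 and 10 when DMSO array 1, 2, 1b or 2b was left out, and 10, 7 and 11 for NS-398 array 1, 2 or 1b. In each of the fits singled out here, the count over all probe sets fell too. For indomethacin it was 239 without DMSO array 1b, against 572 with all arrays. The NS-398 count over all probe sets was 1659 to 2369 with 1 array left out, against 2366. Of 63 calls of named genes, 38 held when any 1 array was left out and 25 were lost in at least 1 such fit. None of the named calls was reversed under any setting run. Slc35c1, Slc20a1 and Slc16a1 were called for indomethacin in set b alone and not in the additive model.

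With the array label as a replicate block in place of the label set, 5 genes were called for indomethacin, 26 for NS-398 and 14 for the difference between the drugs. Over all probe sets these counts were 388, 1953 and 732. Deviations from group means correlated at 0.69 to 0.79 between arrays of one label and at 0.70 to 0.81 between arrays that share the set but not the digit. With the set removed, those of one label were -0.08 to 0.06, so that the digits are not taken to pair the arrays. No replicate block was used for the main counts. The cause of these shifts was not tested. With 2 indomethacin arrays, all in 1 set, a change of 0.5 was often missed in simulated data.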
